A study of Mus musculus with 9 samples.

Results

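Cohesin contacts of an F1 cross were set against those of NOD mice with both sides mapped on the NOD genome. The members are 3 of the 9 libraries in the series: 1 F1 library and 2 NOD libraries, chosen by strain and antibody as labelled and, for F1, by the table whose name gives the NOD genome. All are HiChIP libraries made with an antibody against Smc1, a subunit of the cohesin ring, from thymocytes sorted as CD4+ CD8+. The F1 cells came from (NOD/ShiLtJ X C57BL/6) F1 mice and the others from NOD/ShiLtJ mice. 2 Smc1 libraries from C57BL/6J mice (BL6), mapped on the BL6 genome, entered the choice of loci that were high in NOD and stand beside F1 and NOD at single loci. By their titles, the NOD libraries are technical repeats of 1 biological replicate, and the same holds for BL6. The names of the NOD tables number the repeats differently but give the same biological replicate. The F1 library has no replicate, so no test was made, and every ratio below describes these libraries. The spread between the NOD libraries may be technical only.

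HiChIP ligates DNA ends that lie close together in the nucleus and then pulls down the fragments bound by a chosen protein. Cohesin extrudes loops of chromatin, often until it meets CTCF, and so brings promoters near distal enhancers. CD4+ CD8+ thymocytes are the double-positive stage at which T cells are selected, and NOD mice develop autoimmune diabetes spontaneously. An F1 cell carries one NOD and one C57BL/6 copy of each autosome, so a contact made only by NOD chromosomes is present on one copy in F1 and on both in NOD.

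Each deposited table gave the read pairs counted for an interaction, and listed it only with 2 or more of them and a q-value no higher than 0.05. A contact that is missing from a table is therefore called not listed. The values rest on chromosomes 1 to 19 and on interactions whose anchor midpoints lie 10 kb or more apart. They held 791845 read pairs in F1, against 1663280 and 1484541 in NOD libraries 1 and 2. The smaller F1 total means that a contact of the same strength reached the listing limit less easily in F1, and the part of this in the ratios was not tested. Interactions with the minimum of 2 read pairs made up 67.9% of those used in F1, against 66.9% and 66.0% in NOD. NOD library 2 stood apart from both others: chromosome 19 held 2.62% of the used read pairs in F1, against 2.71% and 1.66% in NOD libraries 1 and 2. For chromosome 17 the shares were 3.61% in F1, against 3.77% and 2.43%. The results below are therefore given against each NOD library.

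For every protein-coding gene, read pairs were added up over those interactions that had an anchor up to 5 kb from either end of the gene. They are given per 1000000 used read pairs, or CPM. Of 20661 genes, 18017 had a listed interaction in F1, against 18900 and 18635 in NOD libraries 1 and 2. 5408 genes were called covered, with a mean of F1 and NOD of at least 30 CPM. Since this mean takes in both sides, a gene could be covered through F1 alone or through NOD alone. Ratios were taken after adding 5 CPM to each side. A gene was called below or above NOD when F1 was past 2-fold against each NOD library. By that rule F1 was below NOD at 67 covered genes (1.24%) and above NOD at 176 (3.25%), together 4.49%. Each NOD library decides these counts: without library 1 they were 249 and 798, and without library 2 they were 396 and 354. The direction of the excess turned with the minimum: at 15 CPM 471 genes were below and 370 above, and with no minimum 1249 and 638.

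Most covered genes had F1 contacts close to those of NOD. The median log2 ratio of F1 to the NOD mean was 0.22, and over all 20661 genes it was -0.01. Against NOD library 1 alone, 612 covered genes (11.3%) were past 2-fold in F1, and against NOD library 2 it was 1253 (23.2%). The 2 NOD libraries differed from each other by that fold at 960 genes (17.8%), with library 2 lower at 833 (15.4%) and higher at 127 (2.35%). By this count the F1 library lay nearer to NOD library 1 than NOD library 2 did, and farther from NOD library 2. By correlation over the same genes the first order was the other way. Pearson r with NOD library 1 was 0.23 for F1, against 0.30 for NOD library 2. Scaling by the median ratio in place of the totals moved the median of the covered genes to 0.04. With that scaling 97 genes were below and 76 above NOD, so the excess of genes above NOD was lost with it.

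**Figure D1:**
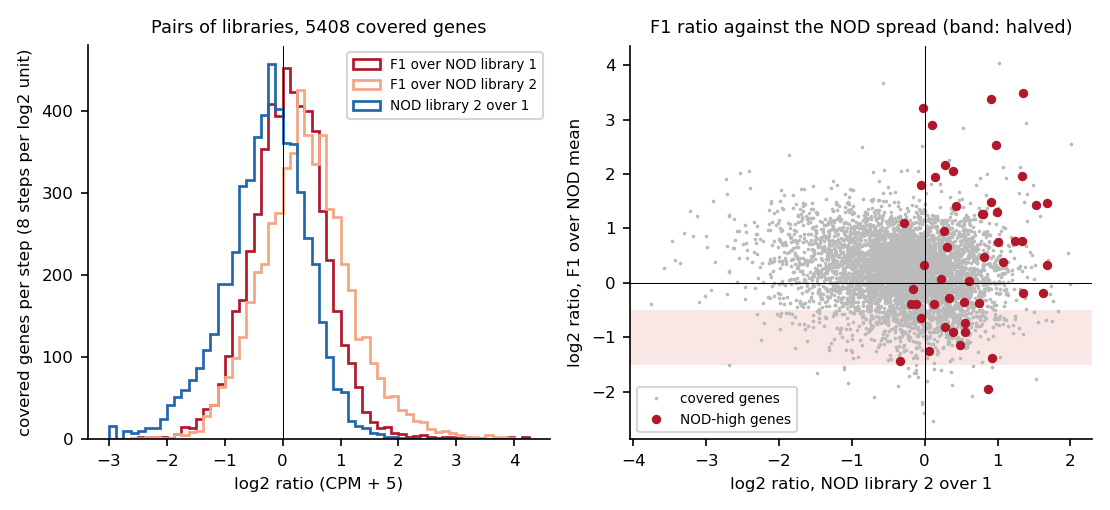
Left, histograms of log2 ratios of CPM + 5 between pairs of libraries over the 5408 covered genes, with values beyond the axis placed in the end steps. Right, each covered gene (grey) and each NOD-high gene (red) by its log2 ratio of NOD library 2 to 1 (x axis) and of F1 to the NOD mean (y axis), with the halved class shaded. The medians are 0.11 for F1 over NOD library 1, 0.38 for F1 over NOD library 2 and -0.23 for NOD library 2 over 1.

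Genes whose contacts were high in NOD were picked out by the BL6 libraries. A covered gene was called NOD-high when the lower NOD library was at least 2-fold above the higher BL6 library, with 5 CPM added. This held for 48 genes at 30 loci (0.888% of covered genes). BL6 and NOD reads were mapped on different genomes, so strain and mapping cannot be told apart in this choice. Among these genes the ratio of F1 to the NOD mean was classed on the log2 scale as halved, meaning near a halving, from -1.5 to -0.5, near NOD from -0.5 to 0.5, and above NOD from 0.5 upward.

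9 NOD-high genes at 6 loci were halved in F1, or 18.8% (exact 95% binomial interval 8.95% to 32.6%), against 632 of all covered genes (11.7%). 1 more, Itln1, was lower still, against 28 of all covered genes (0.518%). 15 genes (31.2%) were near NOD, and 23 (47.9%) were above NOD, against 56.8% and 31.0% of all covered genes. F1 was lower than both NOD libraries at 16 of the 48 genes, between them at 7 and higher than both at 25, against 1130, 1637 and 2641 of all 5408 covered genes. Halved levels were thus found at 6 of the 30 NOD-high loci. The interval treats genes as independent, while 4 of the 9 share the locus of Alad, so it is too narrow. Just inside the halved class lay the predicted gene Gm40369 with a log2 ratio of -0.65, and just outside it Selplg, the P-selectin ligand of leukocytes, with -0.39.

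The choice of NOD-high genes used the same NOD libraries as the ratio, so a lower F1 value is partly fixed by it. When the genes were chosen in NOD library 1 and F1 was read against NOD library 2, 19 of 81 (23.5%) were halved, against 14.6% of all covered genes. Chosen in NOD library 2 and read against NOD library 1, 14 of 83 (16.9%) were halved, against 19.3%. The share thus lay above that of all covered genes in the first case and below it in the second. Without NOD library 1 in both the choice and the ratio the halved share was 46.2% of 117 genes, against 14.6% of all covered genes. Without NOD library 2 it was 40.5% of 148, against 19.3%. In both settings the same single NOD library makes the choice and the ratio.

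**Figure D2:**
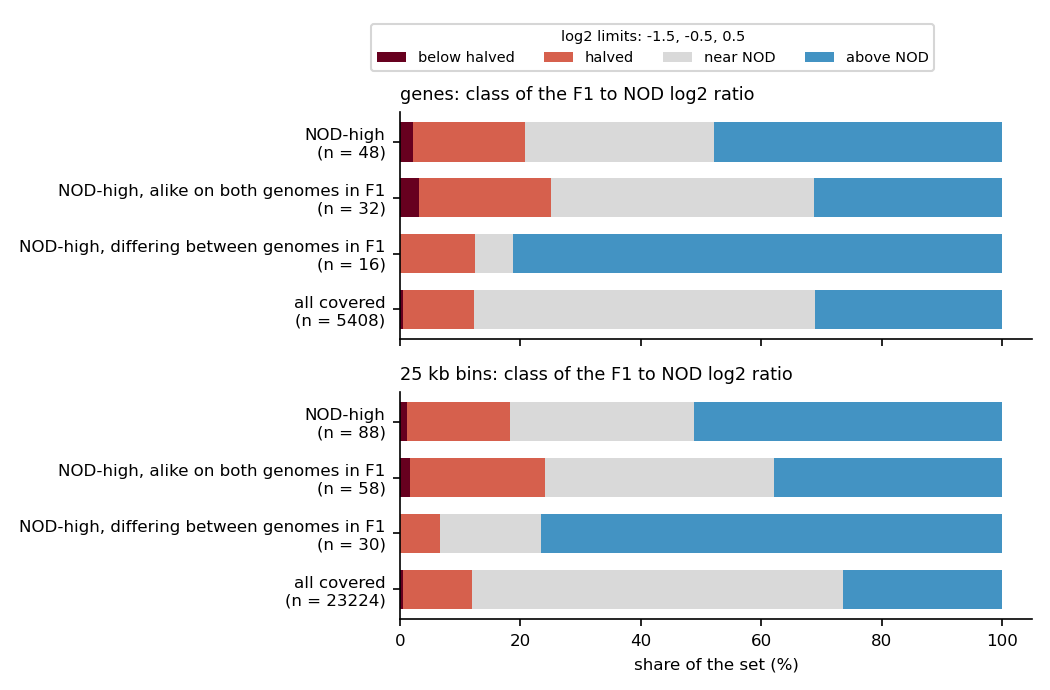
Share of genes (top) and 25 kb bins (bottom) in each class of the log2 ratio of F1 to the NOD mean, for all NOD-high features, for those within and beyond 1.5-fold between the 2 genomes on which F1 was mapped, and for all covered features. The halved class holds 18.8% of the NOD-high genes and 11.7% of all covered genes, and above NOD holds 47.9% and 31.0%.

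**Figure D3:**
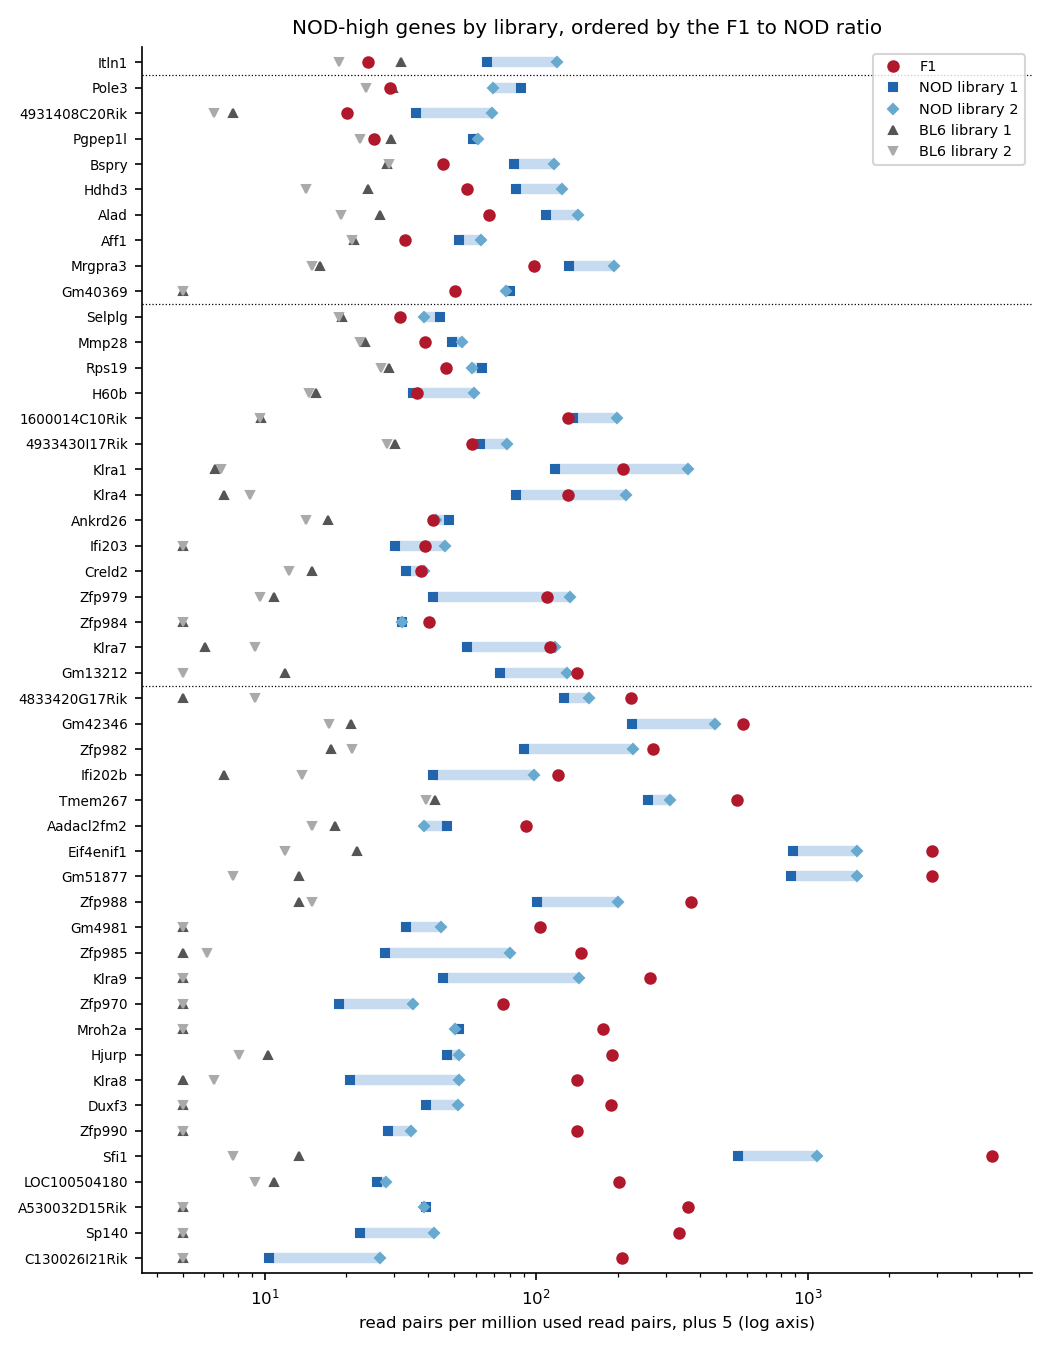
Read pairs per 1000000 used read pairs plus 5 (log axis) of the 48 NOD-high genes in F1 (circles), NOD libraries 1 and 2 (squares and diamonds, joined by a bar) and BL6 libraries 1 and 2 (triangles), ordered by the ratio of F1 to NOD. Dotted lines part the classes: Itln1 alone is below the halved range, 9 genes are halved, 15 near NOD and 23 above NOD.

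The locus with the most halved genes lies on chromosome 4. It holds Alad, the second enzyme of heme synthesis, Hdhd3, a hydrolase of the haloacid dehalogenase family, Bspry, a B-box and SPRY domain protein, and Pole3, a histone-fold subunit of DNA polymerase epsilon. Alad (chr4:62505984-62520063, GRCm38) had 49 read pairs in F1, against 172 and 204 in NOD libraries 1 and 2 and 41 and 37 in BL6. On the CPM scale this was 61.9 in F1, against 103 and 137 in NOD and 21.6 and 14.1 in BL6. The F1 level thus lay below both NOD libraries and above both BL6 libraries. The log2 ratio of F1 to NOD was -0.91, with a counting interval of -1.41 to -0.52. That interval is the exact binomial one for read pairs with no CPM added, and it covers counting error only, since read pairs from amplified libraries are not independent molecules.

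The neighbours of Alad share interactions with it, so the genes are 1 locus and not separate evidence. Hdhd3 had 50.5 CPM in F1, against 79.4 and 119 in NOD, a log2 ratio of -0.91. Bspry had 40.4 CPM in F1, against 78.2 and 111 in NOD, a ratio of -1.13. Pole3 had 23.99 CPM in F1, against 83.0 and 64.7 in NOD, and was past 2-fold below both with -1.44. Its F1 level lay within the BL6 range of 18.7 to 24.7 CPM. The fifth NOD-high gene of the locus, 4933430I17Rik, was near NOD at 53.0 CPM in F1, against 57.1 and 73.4 in NOD. With F1 mapped on the BL6 genome, Alad had 42 read pairs and Pole3 19.

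What differed at this locus was a set of short contacts. With both anchors within 35 kb of the middle of Alad, F1 listed no interaction of any length, on either genome. NOD libraries 1 and 2 listed 72 and 129 read pairs there at 10 kb or more, in 4 and 6 interactions, and 171 and 221 at any length. BL6 libraries 1 and 2 listed 0 and 13 at 10 kb or more, and 35 and 52 at any length. At any length F1 was thus below the libraries of both strains. The strongest 25 kb bin pair of the locus, which joins the bin of Bspry to the bin of Hdhd3 and Alad, was not listed in F1, against 53 and 115 read pairs in NOD and 0 and 7 in BL6. The next pair, from the bin before that of Bspry to the bin of Hdhd3 and Alad, had 18 read pairs in F1, against 15 and 14 in NOD and 0 and 4 in BL6. The 35 kb limit was chosen after the contacts were seen, and an F1 interaction of 8 read pairs across Alad ended just beyond it, 39.0 kb from the middle. Another, of 3 read pairs with 1 anchor midpoint in Alad, began just beyond it on the other side, 38.2 kb from the middle.

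**Figure D4:**
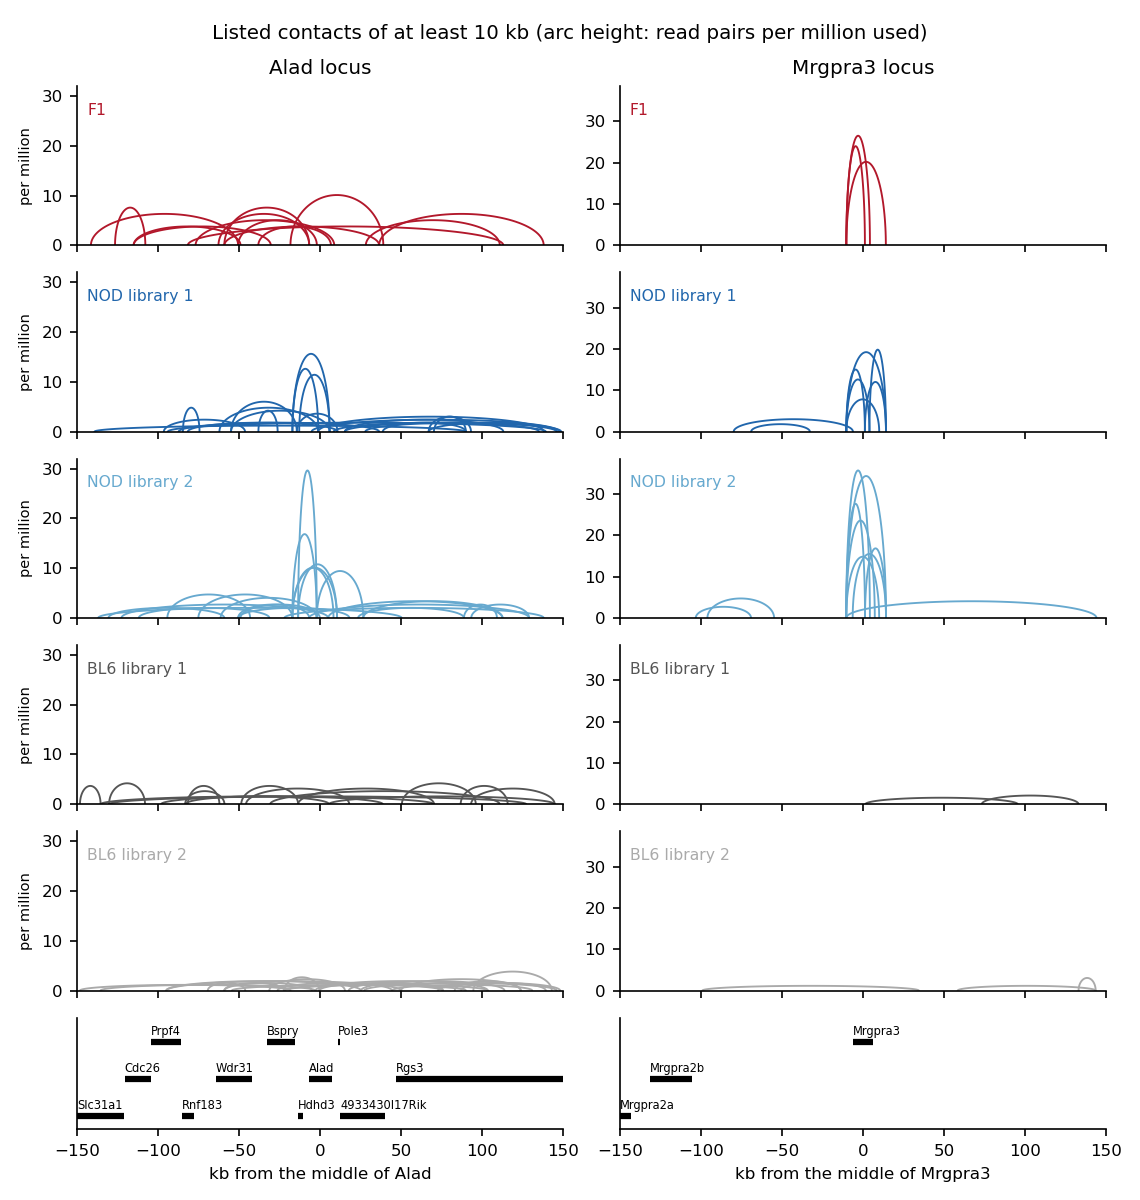
Listed interactions of at least 10 kb within 150 kb of the middle of Alad (left) and Mrgpra3 (right), 1 row per library, with protein-coding genes below. Each arc joins 2 anchor midpoints (x axis, kb) and its height is its read pairs per 1000000 used (y axis, same scale within a column). F1 has no arc with both anchors within 35 kb of the middle of Alad, where NOD libraries 1 and 2 have 4 and 6, while at Mrgpra3 the 3 arcs of F1 lie in bin pairs that both NOD libraries list.

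The start regions of the 4 genes are shown because the contact not listed in F1 joins the bin with the start of Bspry to the bin with the starts of Hdhd3 and Alad, with Pole3 at its edge. HiChIP ends arise where MboI cuts at GATC, so each such site is in capitals, in the RefSeq sequence of GRCm38.p6 from 250 bases before to 50 after the start, read along the gene. The regions are chr4:62479812-62480111 (plus strand) for Bspry, chr4:62502151-62502450 (minus) for Hdhd3, chr4:62520014-62520313 (minus) for Alad and chr4:62524965-62525264 (minus) for Pole3.
Bspry: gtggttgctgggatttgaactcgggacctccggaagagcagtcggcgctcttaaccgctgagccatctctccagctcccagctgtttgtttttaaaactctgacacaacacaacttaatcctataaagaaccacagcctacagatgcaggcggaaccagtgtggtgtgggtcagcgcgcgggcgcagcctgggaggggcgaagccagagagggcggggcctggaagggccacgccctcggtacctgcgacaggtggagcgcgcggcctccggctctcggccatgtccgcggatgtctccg
Hdhd3: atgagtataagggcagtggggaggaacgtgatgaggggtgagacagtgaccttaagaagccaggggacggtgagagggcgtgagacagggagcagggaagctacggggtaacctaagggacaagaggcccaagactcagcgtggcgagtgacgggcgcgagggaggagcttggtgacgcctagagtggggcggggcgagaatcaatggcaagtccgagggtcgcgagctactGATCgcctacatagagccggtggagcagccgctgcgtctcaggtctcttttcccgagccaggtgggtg
Alad: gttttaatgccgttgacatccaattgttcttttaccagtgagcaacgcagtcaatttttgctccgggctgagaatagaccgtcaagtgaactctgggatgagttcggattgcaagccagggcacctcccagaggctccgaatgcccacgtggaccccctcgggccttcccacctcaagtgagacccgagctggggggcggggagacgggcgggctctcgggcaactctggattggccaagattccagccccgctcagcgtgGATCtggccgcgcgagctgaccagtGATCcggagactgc
Pole3: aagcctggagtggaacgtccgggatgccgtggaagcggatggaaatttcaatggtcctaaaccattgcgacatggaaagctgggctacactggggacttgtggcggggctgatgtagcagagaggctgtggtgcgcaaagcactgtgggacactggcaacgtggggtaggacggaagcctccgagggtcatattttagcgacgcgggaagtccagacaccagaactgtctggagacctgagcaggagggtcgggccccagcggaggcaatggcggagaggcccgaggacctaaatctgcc
Alad had 2 sites in this window and Hdhd3 1. GATC, which reads the same on both strands, occurred in 48.0% of the 32851 RefSeq promoters of 300 bases. This is the BL6 reference sequence, and the NOD sequence was not used here.

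Itln1 (chr1:171518123-171535325), which encodes a lectin that binds microbial sugars, had the lowest ratio among the NOD-high genes. It held 15 read pairs in F1, against 101 and 170 in NOD and 51 and 36 in BL6. On the CPM scale F1 had 18.9, against 60.7 and 115 in NOD and 26.8 and 13.7 in BL6. F1 lay below both NOD libraries and between the BL6 libraries, with a log2 ratio to NOD of -1.95 (counting interval -3.04 to -1.44). Its strongest bin pair was not listed in F1, against 15 and 46 read pairs in NOD and 7 and 6 in BL6.

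Mrgpra3 (chr7:47588950-47601372), an itch receptor of sensory neurons, had fewer listed contacts in F1. With both anchors within 35 kb of its middle and 10 kb or more apart, F1 listed 3 interactions, against 6 and 7 in NOD. The gene held 74 read pairs in F1, against 212 and 280 in NOD and 21 and 26 in BL6. These were 93.5 CPM in F1, against 127 and 189 in NOD and 11.1 and 9.92 in BL6, so F1 lay between the strains with a ratio of -0.73 (interval -1.11 to -0.39). The leading bin pair, between neighbouring bins at the gene, had 16 read pairs in F1, against 98 and 156 in NOD, and was not listed in either BL6 library. The pair within the bin that holds the gene start had 40 in F1, against 46 and 94 in NOD. The first of these contacts was thus lower in F1 per used read pair and the second was not below NOD library 1.

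The other halved loci held fewer read pairs. Pgpep1l, a pyroglutamyl peptidase relative, had 16 read pairs in F1, against 89 and 83 in NOD and 46 in each BL6 library, a ratio of -1.24. Aff1, a scaffold of the super elongation complex of transcription, had 22 in F1, against 78 and 86 in NOD and 31 and 42 in BL6, a ratio of -0.81. Gm40369 had 36 in F1, against 125 and 108 in NOD and none listed in BL6, with none listed for F1 on the BL6 genome either. The clone-named gene 4931408C20Rik had 12 in F1, against 52 and 95 in NOD and 5 and 4 in BL6. The totals of the libraries differ, so the order can change on the CPM scale. There Pgpep1l had 20.2 in F1, between the BL6 libraries at 24.2 and 17.6. Aff1 had 27.8 CPM in F1, above BL6 at 16.3 and 16.0. At 7 of the 10 genes halved or lower, which lie at 7 loci, F1 was above both BL6 libraries. The same held at 15 of 15 genes near NOD and 23 of 23 above NOD. The choice put NOD at least 2-fold above BL6, so these counts are partly fixed by it.

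Among the 15 NOD-high genes near NOD in F1 were Klra1, Klra4, Klra7 and Ifi203, while Klra8, Klra9 and Ifi202b were above NOD. Klra1, of the Klra family of lectin-like receptors for MHC class I, had 205 CPM in F1, against 112 and 357 in NOD and 1.58 and 1.91 in BL6. Klra4 had 126 CPM in F1, against 79.4 and 210 in NOD. Both F1 values lay between the NOD libraries, which differed by more than 2-fold. Ifi203, of the interferon-induced family of DNA-binding proteins, had 34.1 CPM in F1, against 25.3 and 41.1 in NOD, with none listed in BL6. Klra7 had 107 CPM in F1, against 50.5 and 112 in NOD. H60b, which encodes a stress ligand for natural killer cells, had 31.6 CPM in F1, against 30.1 and 53.9 in NOD. Rps19, a ribosomal protein gene, had 41.7 CPM in F1, against 58.3 and 53.2 in NOD, below both but not halved. Mmp28, a matrix metalloproteinase gene, had 34.1 CPM in F1, against 43.9 and 48.5 in NOD.

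The largest class of NOD-high genes was above NOD in F1. Sfi1 (chr11:3131850-3203347), which encodes a centrin-binding centrosome protein, had 3767 read pairs in F1, against 910 and 1606 in NOD and 16 and 7 in BL6. It was the highest gene on the CPM scale, with 4757 in F1, against 547 and 1082 in NOD, and a log2 ratio of 2.54. On the BL6 genome F1 listed none there. Its neighbour Eif4enif1, which encodes a carrier of the cap-binding factor eIF4E, had 2873 CPM in F1, against 875 and 1516 in NOD. The 2 genes share an anchor, so they are 1 locus.

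Sp140 and Sp110, which encode nuclear body proteins that read chromatin, were also far above NOD, while Sp100 of the same family was not covered and had 3 read pairs in F1, against 6 and 29 in NOD. Sp140 had 263 read pairs in F1, against 29 and 55 in NOD, with none in BL6 and none for F1 on the BL6 genome. Its log2 ratio was 3.39 (counting interval 3.28 to 4.01). Sp110, whose lower NOD library did not pass the NOD-high rule, had 188 in F1, against 8 and 22 in NOD. With a NOD mean of 9.81 CPM, Sp110 was covered only through F1. The predicted genes A530032D15Rik and C130026I21Rik nearby had ratios of 3.22 and 3.49. Hjurp, the chaperone of the centromeric histone, had 147 read pairs in F1, against 70 and 70 in NOD and 10 and 8 in BL6, and 2 for F1 on the BL6 genome. Duxf3, which encodes a double homeobox factor of early embryos, had 146 in F1, against 57 and 69 in NOD, and none in BL6.

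Zinc finger genes in clusters on chromosome 4 were also among those above NOD, and they held many read pairs on both genomes. Zfp988 had 291 read pairs in F1, against 159 and 290 in NOD and 16 and 26 in BL6, and 230 for F1 on the BL6 genome. On the CPM scale Zfp988 had 367 in F1, against 95.6 and 195 in NOD. Zfp982 had 265 CPM in F1, against 85.4 and 223 in NOD. Zfp990 had 108 read pairs in F1, against 39 and 44 in NOD, none in BL6, and 106 for F1 on the BL6 genome. By simple order of CPM, F1 was above both NOD libraries at 6 of the 7 NOD-high Zfp genes and at 2 of the 5 NOD-high Klra genes, against 2641 of all 5408 covered genes. Among the Klra genes, Klra9 had 259 CPM in F1, against 40.3 and 139 in NOD, and Klra8 had 136, against 15.6 and 47.2. Ifi202b had 115 CPM in F1, against 36.7 and 93.6 in NOD. These families have near-identical members, so how read pairs were split among copies is uncertain.

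The mapping genome was read beside this class. At 16 NOD-high genes, which lie at 10 loci, the F1 library differed by more than 1.5-fold between its tables. 13 of these 16 (81.2%) were above NOD and 2 halved. Both ratios hold the F1 count on the NOD genome, so a high count raises both, and this overlap is partly fixed by it. Among the 32 genes alike on both genomes, at 20 loci, 10 (31.2%) were above NOD, against 31.0% of all covered genes, and 7 (21.9%) were halved. Tmem267, a transmembrane protein gene on chromosome 13, shows the first kind. It had 431 read pairs in F1, against 421 and 453 in NOD and 71 and 90 in BL6, and 216 for F1 on the BL6 genome. On the CPM scale Tmem267 had 544 in F1, against 253 and 305 in NOD and 37.4 and 34.3 in BL6. The part of mapping in these ratios was not tested.

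The tables also give the reads at each anchor, here summed per kb of anchor in the gene windows and divided by the library's mean. For the 10 genes halved or lower the median was 1.29 in F1, against 2.14 and 1.88 in NOD, and F1 was lower than both NOD libraries at 7 of 10. Among the 15 genes near NOD it was lower than both at 10. Over all covered genes the medians were 1.05 in F1, against 1.07 and 0.984, and F1 was lower than both at 1274 of 5408. For the 23 genes above NOD the medians were 2.23 in F1, against 1.83 and 2.09, with F1 lower than both at 9 and higher than both at 10. Itln1 had 1.33 in F1, against 2.29 and 2.45 in NOD. Alad had 1.41 in F1, against 2.02 and 1.86 in NOD, and its log2 ratio to the NOD mean was -0.46 for anchor reads, against -0.91 for contacts. The genes halved or lower had a median of 8.5 interactions in F1, against 29 and 21.5 in NOD, and those above NOD 23, against 20 and 18. Over all covered genes the medians were 13 in F1, against 26 and 18. The classes rest on the read pairs of these same interactions, so their interaction counts are a description.

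H3K27ac, the acetylated histone found at active promoters and enhancers, gave contacts in libraries that the choice did not use, 2 from NOD and 2 from BL6. The titles of these samples name Smc1, and their antibody field was followed here. Both NOD libraries were above both BL6 libraries in H3K27ac contacts at 37 of the 48 NOD-high genes (77.1%), against 12.2% of all covered genes. The count was 7 of 10 for genes halved or lower in F1, 10 of 15 near NOD and 20 of 23 above NOD. The H3K27ac tables of NOD and BL6 were also made on different genomes. Strain and mapping thus cannot be told apart in these counts either. Alad had 56 and 62 read pairs in the H3K27ac NOD libraries, against 6 and 44 in BL6. Mrgpra3 had 100 and 17 in NOD, against 2 and 6 in BL6. Pgpep1l went the other way in raw counts, with 25 and 14 in NOD, against 36 and 59 in BL6. F1 was compared for Smc1 only.

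Single contacts were followed as pairs of 25 kb bins. 147 pairs had at least 10 read pairs in each NOD library and were not listed in either BL6 library. F1 listed 82 of them, or 55.8% (exact 95% interval 47.4% to 64.0%). Among 1299 pairs past the same minimum that both BL6 libraries listed, F1 listed 1051, or 80.9% (78.7% to 83.0%). The median of F1 over the NOD mean, in CPM with unlisted pairs as 0, was 0.518 for the first set and 0.718 for the second. The pairs were chosen on their NOD counts, and the part of that choice and of the smaller F1 total in the medians was not tested. With at least 20 read pairs in each NOD library, F1 listed 24 of 28 NOD-only pairs (85.7%, interval 67.3% to 96.0%), with a median of 1.17. It listed 263 of 288 shared pairs (91.3%), with a median of 0.827, so the order of the medians was the other way round.

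The 28 strong NOD-only contacts fell at few places. 6 joined bins of Sfi1, with 603 to 3623 read pairs in F1, against 77 to 2350 and 370 to 3461 in NOD libraries 1 and 2. The Klra7 to Klra1 contact had 72.0 CPM in F1, against 42.7 and 136 in NOD. The Pdia5 to Sema5b contact on chromosome 16, between a disulfide isomerase gene and a semaphorin gene, had 5.05 CPM in F1, against 27.7 and 19.5 in NOD. The Klra10 to Klra1 contact was not listed in F1, against 25 and 63 read pairs in NOD. A contact of 1600014C10Rik with Plekhf1, an endosomal protein gene, was not listed in F1 either, against 25 and 47 read pairs in NOD, while its contact with Gm1988 had 59.4 CPM in F1, against 39.1 and 57.9 in NOD, above both. The contact from A530032D15Rik to Sp110 and Sp140 had 130 read pairs in F1, against 34 and 30 in NOD.

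Counting by bin takes in contacts outside gene windows. Of 93698 bins of 25 kb, 23224 were covered, and F1 was below both NOD libraries at 315 (1.36%) and above both at 621 (2.67%), together 4.03%. Against single libraries the shares past 2-fold were 10.4% for F1 against NOD library 1, 17.0% for F1 against NOD library 2 and 12.0% between the NOD libraries, where library 2 was lower at 9.62% and higher at 2.37%. 88 bins at 45 loci were NOD-high, of which 15 (17.0%, interval 9.87% to 26.6%) were halved, 1 lower, 27 near NOD and 45 above NOD, against 11.4% halved and 0.465% lower of all covered bins. Without NOD library 1 the halved share was 45.2%, against 14.6% of all covered bins, and without NOD library 2 it was 38.3%, against 17.0%. Without BL6 library 1 it was 27.5%, against 11.4%. The bin below the halved class lies in Med13l, a Mediator subunit gene, with 7 read pairs in F1, against 96 and 92 in NOD and 42 and 36 in BL6. Halved bins without a NOD-high gene lay in Sema5b (40 in F1, against 222 and 142 in NOD), in Chst15, a sulfotransferase gene (15, against 91 and 79), and in Vav3, a guanine nucleotide exchange factor (15, against 89 and 63).

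Of the 67 genes below both NOD libraries, 3 were NOD-high, against 48 of all 5408 covered genes (0.888%). Urah, an enzyme of urate breakdown, had the lowest ratio, with 5 read pairs in F1, against 97 and 94 in NOD, a log2 ratio of -2.54 (counting interval -4.90 to -2.02). BL6 held 116 and 66 there, so F1 was below the libraries of both strains. F1 mapped on BL6 sequence gave 13 read pairs, or 16.99 CPM in place of 6.31. Ubl7, a ubiquitin-like protein gene, had the most read pairs of this group, with 19 in F1, against 213 and 186 in NOD and 171 and 190 in BL6. Syt13, a synaptotagmin gene, had 5, against 91 and 81 in NOD. The other genes named by the rule were Emp1, Inpp5e, Atp6v0a1, Cib4 and Necab2, with 7 to 11 read pairs in F1, against 49 to 124 in NOD. The lowest covered bin, in Tmem104, had 2 in F1, against 97 and 98 in NOD and 188 and 138 in BL6, and F1 mapped on BL6 sequence gave 9. Over the 67 genes the median number of interactions was 5 in F1, against 31 and 27 in NOD, while anchor reads per kb were alike at 1.06 in F1, against 1.07 and 0.970.

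Genes above both NOD libraries outside the NOD-high set were of several kinds. Those named here were covered only through F1, with NOD means from 1.20 CPM at Klra3 to 20.9 CPM at Zfp978. An F1 value above the NOD mean was thus fixed for them by the minimum. Klra3 had 59 read pairs in F1, against 4 in NOD library 1 and none listed in library 2. Zfp978 had 143, against 27 and 38 in NOD. Ugt1a7c, a glucuronosyltransferase gene, had 97 in F1, against 6 and 44 in NOD, and F1 mapped on BL6 sequence gave 17. For other genes BL6 lay above both NOD libraries too. Cfl1, which encodes the actin-severing cofilin, had 43 in F1, against 22 in NOD library 1, none listed in library 2, and 29 and 48 in BL6. Tmem109 had 49 in F1, against 17 and 5 in NOD and 67 and 78 in BL6. Smok2b, a sperm motility kinase gene, had 51, against 12 in NOD library 2, none listed in library 1, and 52 and 82 in BL6. Pgam2, the muscle phosphoglycerate mutase gene, had 41, against 16 and 11 in NOD.

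A list of genes of the double-positive stage was read in the same way. Of its 30 matched genes 14 were covered, 0 were below and 1, Cd1d1, was above NOD. Of all covered genes 1.24% were below and 3.25% above. The median log2 ratio of the 14 was 0.17, against 0.22 over all covered genes. Over all 30 the median was -0.13, against -0.01 over all genes. F1 was the lowest of the 3 libraries at 2 of the 14, against 1130 of all 5408. Cd1d1, which presents lipids to select natural killer T cells, had 41 read pairs in F1, against 34 and 11 in NOD. With a NOD mean of 13.9 CPM, Cd1d1 was covered only through F1. Cd8a, which encodes a chain of the CD8 coreceptor, had 74.5 CPM in F1, against 115 and 22.9 in NOD, and Cd8b1 had 134, against 74.0 and 18.2. NOD library 2 was the lowest of the 3 libraries at 11 of these 14 genes, against 2913 of all 5408. Contacts do not report expression, so this is no check of the sorted cells. Marker lists of other cells also had covered genes: 5 of 12 for B cells, 3 of 12 for natural killer cells, 7 of 18 for myeloid cells, 1 of 9 for erythroid cells and 5 of 14 for thymic epithelium. Of these 0 were past 2-fold, against 4.49% of all covered genes, and few were covered. F1 listed 11 of the 12 B cell genes and 16 of the 18 myeloid genes. Among the defining markers of both lists, Cd79a and Cebpa were not listed in F1. Of the 30 double-positive genes F1 listed 28, and Ptcra, a defining marker, and Glcci1 were not listed. Cd4 had 15.2 CPM in F1, against 48.7 and 10.8 in NOD, and was not covered.

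The transcription factor list showed the same order of libraries. Of 54 matched genes 31 were covered, 0 were below NOD and 1, Runx2, was above, with 48 read pairs in F1, against 38 and 31 in NOD. With a NOD mean of 21.9 CPM, Runx2 was covered only through F1. Of all covered genes 1.24% were below and 3.25% above. NOD library 2 was the lowest at 25 of the 31, against 2913 of all 5408 covered genes. Bcl11b, the factor of T lineage commitment and a gene named for its high level of contacts, had 184 CPM in F1, against 279 and 117 in NOD. Bcl6, a transcriptional repressor, had 177 CPM in F1, against 274 and 103. Clic6, a chloride channel gene named for its level too, had 232 CPM in F1, against 138 and 66.7. Runx1, a core factor of thymocytes, had 49.3 CPM in F1, against 99.8 and 8.76, and Tcf7, which encodes TCF-1, had 13.9, against 87.8 and 9.43. For Runx1 and Tcf7, F1 thus lay between NOD libraries that differed by more than 2-fold. Against NOD library 1 alone the list's median log2 ratio was -0.12, and against NOD library 2 it was 0.60.

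Other lists of the pathway and of disease genes had no member below NOD, against 1.24% of all covered genes. Past 2-fold either way were 4.49% of all covered genes. With so few covered members, a count of 0 sets no list apart from these shares. Of the T cell receptor signalling list 21 of 52 were covered, with 0 past 2-fold either way and a median of -0.02. Cd247, the zeta chain of the receptor complex, had 114 CPM in F1, against 115 and 94.3 in NOD. Cd3g, the gamma chain, had 30.3 CPM in F1, against 80.6 and 1.35. Of 70 matched type 1 diabetes and Idd candidates 23 were covered, with 0 past 2-fold and a median of 0.25, while over all 70 the median was -0.32, against -0.01 over all 20661 genes, so its sign turned with the minimum. Il2ra, the alpha chain of the interleukin-2 receptor, had 49.3 CPM in F1, against 33.1 and 16.2. In the MHC region only H2-Ob of 40 matched genes was covered, with 80.8 CPM in F1, against 58.3 and 39.7. Of the strain-polymorphic families 21 of 83 were covered, with 0 below, 4 above and 9 NOD-high. Of all covered genes 3.25% were above NOD and 0.888% NOD-high. In the cohesin and CTCF list 3 of 15 were covered, and Smc3, a subunit of the ring itself, had 29.0 CPM in F1, against 60.7 and 12.1.

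The chromosome on which a gene lay moved with the calls. On chromosome 19, 8.44% of covered genes were above NOD and 0 of 154 were below, and on chromosome 17 the shares were 6.63% and 0.552%. On chromosome 7 they were 1.18% and 1.76%. The median log2 ratio on chromosome 19 was 0.08 against NOD library 1 and 1.10 against NOD library 2, and between NOD libraries 2 and 1 it was -0.97. On chromosome 17 those medians were -0.02, 0.83 and -0.79. The excess of genes above NOD on these chromosomes thus stood beside low values of NOD library 2, and the part of that library in it was not tested.

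**Figure D5:**
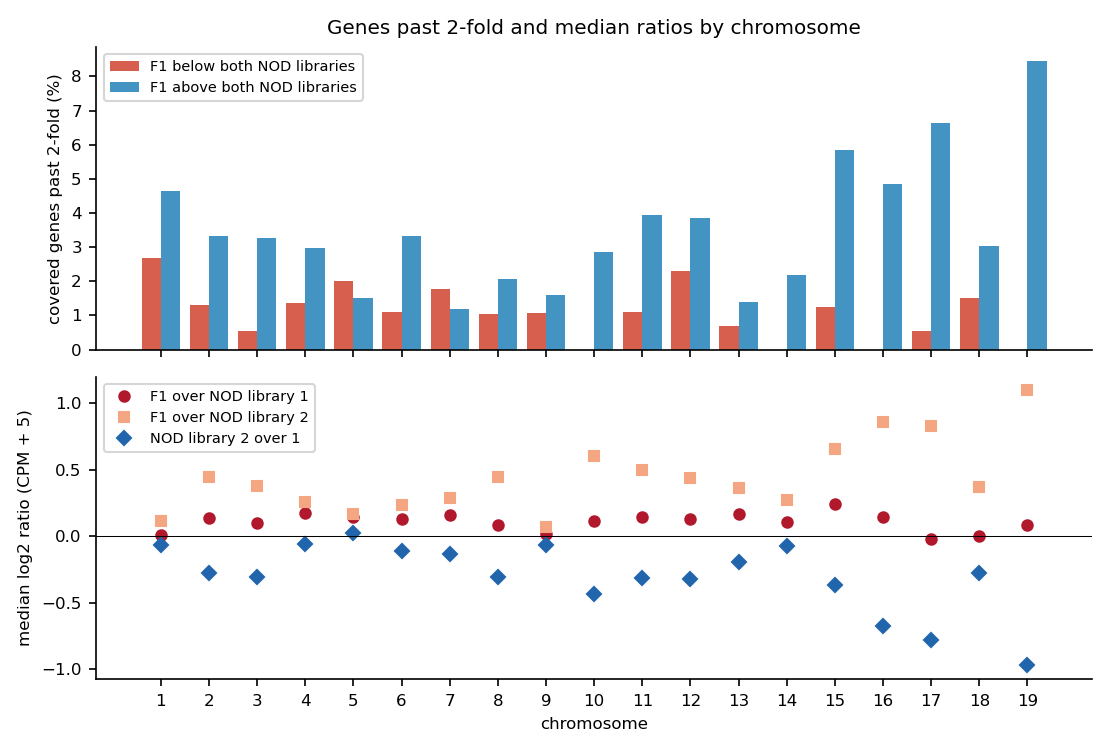
Top, share of covered genes past 2-fold below (red) and above (blue) both NOD libraries on each chromosome. Bottom, median log2 ratio of CPM + 5 for F1 over NOD library 1, F1 over NOD library 2 and NOD library 2 over 1. Chromosome 19 has 8.44% of its genes above, where NOD library 2 lies 0.97 under library 1 on the log2 scale.

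Across all 20661 genes, log2 CPM + 5 of F1 correlated with that of NOD library 1 at a Pearson r of 0.74 and with that of NOD library 2 at 0.66, against 0.72 between the NOD libraries. Across the 5408 covered genes the values were 0.23, 0.14 and 0.30. These are descriptions across genes, which share gene windows, depth and mapping. Of the 286312 bin pairs listed in F1, 19.99% were listed in NOD library 1 and 16.8% in NOD library 2, and 16.0% of the pairs of NOD library 1 were listed in NOD library 2. Of the 2448 pairs with at least 10 read pairs in F1, 69.2% were listed in NOD library 1 and 61.7% in NOD library 2, against 53.9% of such NOD library 1 pairs in NOD library 2. In the other direction, F1 listed 42.4% of the pairs with at least 10 read pairs in NOD library 1. For NOD library 2 it listed 40.2% of such pairs, and NOD library 1 listed 57.5% of them. Most weak pairs were thus listed in 1 of these libraries and not in another. Most pairs with at least 10 read pairs in F1 were listed in NOD library 1, and most in NOD library 2. Most such pairs of either NOD library were not listed in F1.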

How the data were processed

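Smc1 HiChIP was made from sorted thymocytes with MboI digestion, per the labels' protocols. The deposited tables hold counts of read pairs per interaction with p-values and q-values by the authors. Every interaction listed had a count of 2 or more and a q-value no higher than 0.05. HiC-Pro, Juicer 1.7.6, MACS and GRCm38 are named, without roles, per the submitters' processing notes. The NOD and F1 tables were made on the NOD genome with positions shifted to the reference, per the names of the deposited tables, and the BL6 tables on the BL6 genome.

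Counts were added up in windows of protein-coding genes (RefSeq, GRCm38.p6, 5 kb either side) and in 25 kb bins with Python 3.11.15, pandas 2.3.3, numpy 2.4.6 and scipy 1.17.1, and drawn with matplotlib 3.10.9. An interaction counted once per window. CPM is per 1000000 used read pairs, and 5 CPM was added before log2. The classes of the ratio were tested on simulated data. No test between groups was made, since F1 has 1 library, and depth sets the counting intervals (exact, 95%), which cover counting error only.

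Named genes are covered genes with no clone-type name, 1 per 100 kb: up to 10 each below and above NOD by ratio, up to 15 NOD-high and 10 overall by level, and members of the lists that passed a fold rule. Other genes of the NOD-high set, of the lists and of the bins were named after their values were seen. 1 gene below NOD that this rule names is not reported here. The members and lists were chosen with earlier results of these data known. Alternatives were other windows, bins, minimums, distances, scalings and added CPM, and leaving out libraries. Chromosomes X and Y were not used here.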

Additional observations from a re-analysis of the deposited data

Results flagged for a closer look

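Read pairs with midpoints under 10 kb apart entered no comparison. In F1 on the NOD genome 5 bins of 25 kb held many of them, with none listed in either BL6 library or for F1 on the BL6 genome, which is why they are given here. 3 of the bins lie in Sfi1 on chromosome 11. The bin from 3175001 held 4599 in F1, against 3201 and 5100 in NOD libraries 1 and 2, or 5808 per 1000000 used read pairs in F1, against 1925 and 3435. The bin from 3125001 held 2824 in F1, against 1304 and 1678 in NOD. The bin from 3150001 held 2705 in F1, against 2091 and 2727 in NOD.

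The other two bins held no protein-coding gene. The bin from 39825001 on chromosome 17 held 1201 in F1, against 0 and 935 in NOD. The bin from 98650001 on chromosome 2 held 952 in F1, against 5571 and 2997 in NOD. The part of the mapping genome in these counts was not tested.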

How the results depend on the processing

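Counts of genes and bins past 2-fold depended on the limits, and the cause was not tested. With 3 or more read pairs per interaction, 268 genes were below and 565 above NOD, 987 bins below and 1788 above, and 27.3% of NOD-high bins halved. Minimums of 15 CPM gave 471 and 370 genes and 1864 and 1342 bins, of 60 CPM 2 and 46 genes and 8 and 120 bins, and no minimum 1249 and 638 genes. Median-ratio scaling left 76 genes and 314 bins above NOD. Windows of 10 kb gave 182 genes below. Bins of 50 kb gave 490 below and 298 above, with 8.89% of NOD-high bins halved, and a 4-fold NOD-high rule gave 5.88%. Start-site windows, an alternative chosen after seeing the data, gave 11 genes below and 77 above, with a halved share of 33.3%.

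Leaving out 1 NOD library gave 249 to 396 genes below and 354 to 798 above, and halved shares of 40.5% to 46.2%. For bins it gave 1033 to 1306 below and 1322 to 2562 above, and shares of 38.3% to 45.2%. Leaving out 1 BL6 library gave 21.8% to 27.5% of NOD-high bins and 19.2% to 19.7% of NOD-high genes. Of 612 ratios of named genes and bins under 12 settings, 513 stayed inside the counting interval and 99 did not. Some small ratios changed sign when a NOD library was left out. The log2 ratio of Bcl11b was -0.10 with both, and 0.63 without NOD library 1. For Klra1 it was -0.19 with both, and 0.84 without NOD library 2. No paired analysis was possible because the F1 group has 1 library and no test was made. The F1 total of read pairs limits what could be listed.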
